A study of Mus musculus with 57 samples.

Results

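Pparg, Cebpa, Cebpd, Ebf1, Ebf2, Zfp423, Klf15, Rxra, Ppara and Esrra encode transcription factors that drive the formation of fat cells or control their metabolic genes. These 10 genes were picked by symbol for that role and not by a measured value, though earlier results of these data were known. They are 10 of the 52853 genes kept from the count tables. RNA-seq was run on adipose tissue of male mice, with 41 samples in 6 groups. The sources used here do not say whether BAT and HFD-fed inguinal WAT came from the same animals, so each sample was counted as 1 mouse and the tissues were tested as independent. The knock-in (KI) mice were homozygous for the R707W allele of Mfn2, which encodes a mitochondrial outer membrane GTPase, and wild-type (WT) littermates carried no edited allele. The allele was made by CRISPR-Cas9 in C57BL/6J oocytes, and a single line was re-derived and used throughout, in every tissue of the mouse and not in fat cells alone. From 5 weeks of age, mice received chow or a high fat diet (HFD) with 45% of its energy as fat for 6 months. Inguinal white adipose tissue (WAT) was taken from 7 WT and 6 KI mice on chow and from 8 WT and 8 KI mice on HFD. Brown adipose tissue (BAT) was taken from 6 WT and 6 KI mice on HFD. The comparisons ask how the allele changes these regulators in each tissue and diet.

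Fat cells arise from fibroblast-like progenitors through a relay of transcription factors. Cebpd acts early, Zfp423 and the Ebf proteins mark committed progenitors, and Pparg and Cebpa then switch on each other and the genes of the mature adipocyte. Pparg binds DNA as a pair with Rxra, its obligate nuclear receptor partner. Klf15 is a zinc finger factor that acts on Pparg and on glucose and amino acid metabolism. Ebf2 marks brown and beige precursors, whereas Zfp423 maintains white identity by restraining Ebf2. Ppara controls fatty acid oxidation and Esrra controls mitochondrial genes, and both work with the coactivator encoded by Ppargc1a, which is prominent in brown fat.

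The promoters of these genes are shown because several factors of the relay act on one another. RefSeq start sites (GRCm38.p6) gave 13 windows for 8 of the 10 members, out of 32851 windows over all genes, each running from 250 bases before a start to 50 after it. Cebpd and Ebf2 had no window. The 250 bases before the start are printed 5′ to 3′ for the 5 members on which the results below turn most. Of the 3 Pparg starts, the most downstream is shown, from which the adipocyte-enriched Pparg2 form is made. Capitals mark a match on either strand to 1 of 5 motifs: the nuclear receptor half-site AGGTCA, its extension AAGGTCA bound by Esrra (which contains the shorter motif), TTGCNNAA of the C/EBP factors, CCCNNGGG of the Ebf factors, and CCNCNCCC of the Klf factors.
Pparg, start 3: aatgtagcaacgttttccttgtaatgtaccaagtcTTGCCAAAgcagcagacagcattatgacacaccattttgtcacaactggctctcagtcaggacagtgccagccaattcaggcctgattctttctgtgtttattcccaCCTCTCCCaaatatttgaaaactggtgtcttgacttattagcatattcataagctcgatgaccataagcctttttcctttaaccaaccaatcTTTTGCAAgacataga
Cebpa: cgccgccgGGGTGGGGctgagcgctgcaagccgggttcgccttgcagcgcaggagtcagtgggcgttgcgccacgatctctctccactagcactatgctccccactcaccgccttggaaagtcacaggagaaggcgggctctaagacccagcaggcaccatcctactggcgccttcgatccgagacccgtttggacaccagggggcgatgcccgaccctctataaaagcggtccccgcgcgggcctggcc
Ebf1, start 1: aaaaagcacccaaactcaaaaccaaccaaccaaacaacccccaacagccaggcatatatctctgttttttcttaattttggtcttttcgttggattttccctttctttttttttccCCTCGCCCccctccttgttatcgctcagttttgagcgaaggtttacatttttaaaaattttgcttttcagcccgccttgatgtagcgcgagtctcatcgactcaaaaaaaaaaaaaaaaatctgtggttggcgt
Ebf1, start 2: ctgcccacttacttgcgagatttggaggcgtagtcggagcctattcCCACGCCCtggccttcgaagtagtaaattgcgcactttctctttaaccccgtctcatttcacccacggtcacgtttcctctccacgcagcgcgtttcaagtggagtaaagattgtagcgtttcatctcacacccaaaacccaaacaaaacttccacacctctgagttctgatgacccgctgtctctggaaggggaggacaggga
Ppara: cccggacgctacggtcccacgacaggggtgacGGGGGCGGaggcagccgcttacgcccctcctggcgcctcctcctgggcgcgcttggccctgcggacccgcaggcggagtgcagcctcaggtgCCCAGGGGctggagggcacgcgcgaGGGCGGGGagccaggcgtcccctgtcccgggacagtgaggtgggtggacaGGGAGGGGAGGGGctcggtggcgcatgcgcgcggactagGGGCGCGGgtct
Esrra: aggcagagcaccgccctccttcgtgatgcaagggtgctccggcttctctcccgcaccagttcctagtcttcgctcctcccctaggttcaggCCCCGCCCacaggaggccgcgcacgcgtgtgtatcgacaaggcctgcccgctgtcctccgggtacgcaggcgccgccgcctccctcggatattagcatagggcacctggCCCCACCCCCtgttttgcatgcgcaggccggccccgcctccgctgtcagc
The windows lie at chr6:115421816-115422065 (Pparg, plus strand), chr7:35119043-35119292 (Cebpa, plus), chr11:44617850-44618099 and chr11:44619978-44620227 (Ebf1, both plus), chr15:85735526-85735775 (Ppara, plus) and chr19:6921809-6922058 (Esrra, minus). Pparg window 3 held 2 C/EBP matches, which began 215 and 16 bases before the start, at -215 and -16. Such matches occurred in 2 of the 13 member windows and in 10.8% of all windows. The Klf motif was in all 13 member windows and in 49.5% of all windows, and the Ebf motif was in 2 member windows and 13.7% of all. AGGTCA was in 4 member windows and 16.3% of all windows, and AAGGTCA was in 1 member window, that of a second Rxra start, and in 4.72% of all. A match gives letters only and is not a measured binding site.

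Total counts per mouse ranged from 8042591 to 25680411, and were higher in HFD-fed inguinal WAT (17572752 or more) than in the other groups (11720458 or fewer). Each HFD-fed inguinal WAT column held 1 value per mouse, although 2 technical libraries were labelled for each of those mice. Levels below are counts per 1000000 (CPM) after TMM normalisation over all 41 samples. The mitochondrially encoded genes took a median of 9.91% of counts in HFD-fed inguinal WAT of WT mice and 2.52% in KI mice. Their medians were 16.2% and 11.2% in BAT, and 3.77% and 1.97% on chow. Scales that divide by the whole library, such as TPM, include these counts. For KI over WT in HFD-fed inguinal WAT, the median of all genes moved by 0.46 on the TPM scale, and by 0.0057 without these genes. For BAT over inguinal WAT of WT mice it moved by -1.05, and by -0.63 without them. Mouse 4 of the chow KI group carried skeletal muscle markers at a summed 56917 CPM, against a group median of 127. Mature adipocyte markers (8 genes, none at 0) summed to group medians of 22785 to 37967 CPM, and the 6 brown adipocyte markers to 15175 and 19085 CPM in BAT of WT and KI mice and to 19.0 to 406 CPM in inguinal WAT. Mfn2, whose coding change the knock-in carries, differed by 0.34, 0.36 and 0.29 on the log2 scale in KI mice (HFD inguinal WAT, chow inguinal WAT and BAT; adjusted p of 0.0114, 0.0840 and 0.113 by edgeR's quasi-likelihood test), and its level does not check the labels.

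Cebpa was the most abundant of the 10 factors per kilobase of gene length, and Pparg the second, in all 6 groups. Cebpa (chr7:35119293-35121928, plus strand) had a mean of 455 ± 130 CPM per kilobase (SD, n = 7) in chow-fed WT inguinal WAT and 198 ± 26.2 (n = 8) in HFD-fed WT inguinal WAT. Pparg (chr6:115360951-115490399, plus strand) ranged less, from 57.4 ± 9.59 CPM per kilobase (n = 7) in chow-fed WT inguinal WAT to 130 ± 23.7 (n = 6) in BAT of KI mice. Ppara (chr15:85734983-85802819, plus strand) was the least abundant of the 10 in the 4 inguinal groups, at group means of 0.322 to 0.909 CPM per kilobase, but was 5th in BAT of WT mice and 4th in BAT of KI mice. Esrra (chr19:6910977-6921813, minus strand) moved from 8th place in HFD-fed inguinal WAT, at 6.65 ± 1.31 CPM per kilobase in WT mice (n = 8), to 3rd in BAT, at 74.9 ± 7.71 (n = 6). Zfp423 (chr8:87661810-87959595, minus strand) was the least abundant in BAT, at 4.02 ± 0.597 CPM per kilobase in WT mice (n = 6). The places of the 10 factors within each group were the same when levels were given as TPM, which divides by gene length before scaling to the whole library.

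**Figure D1:**
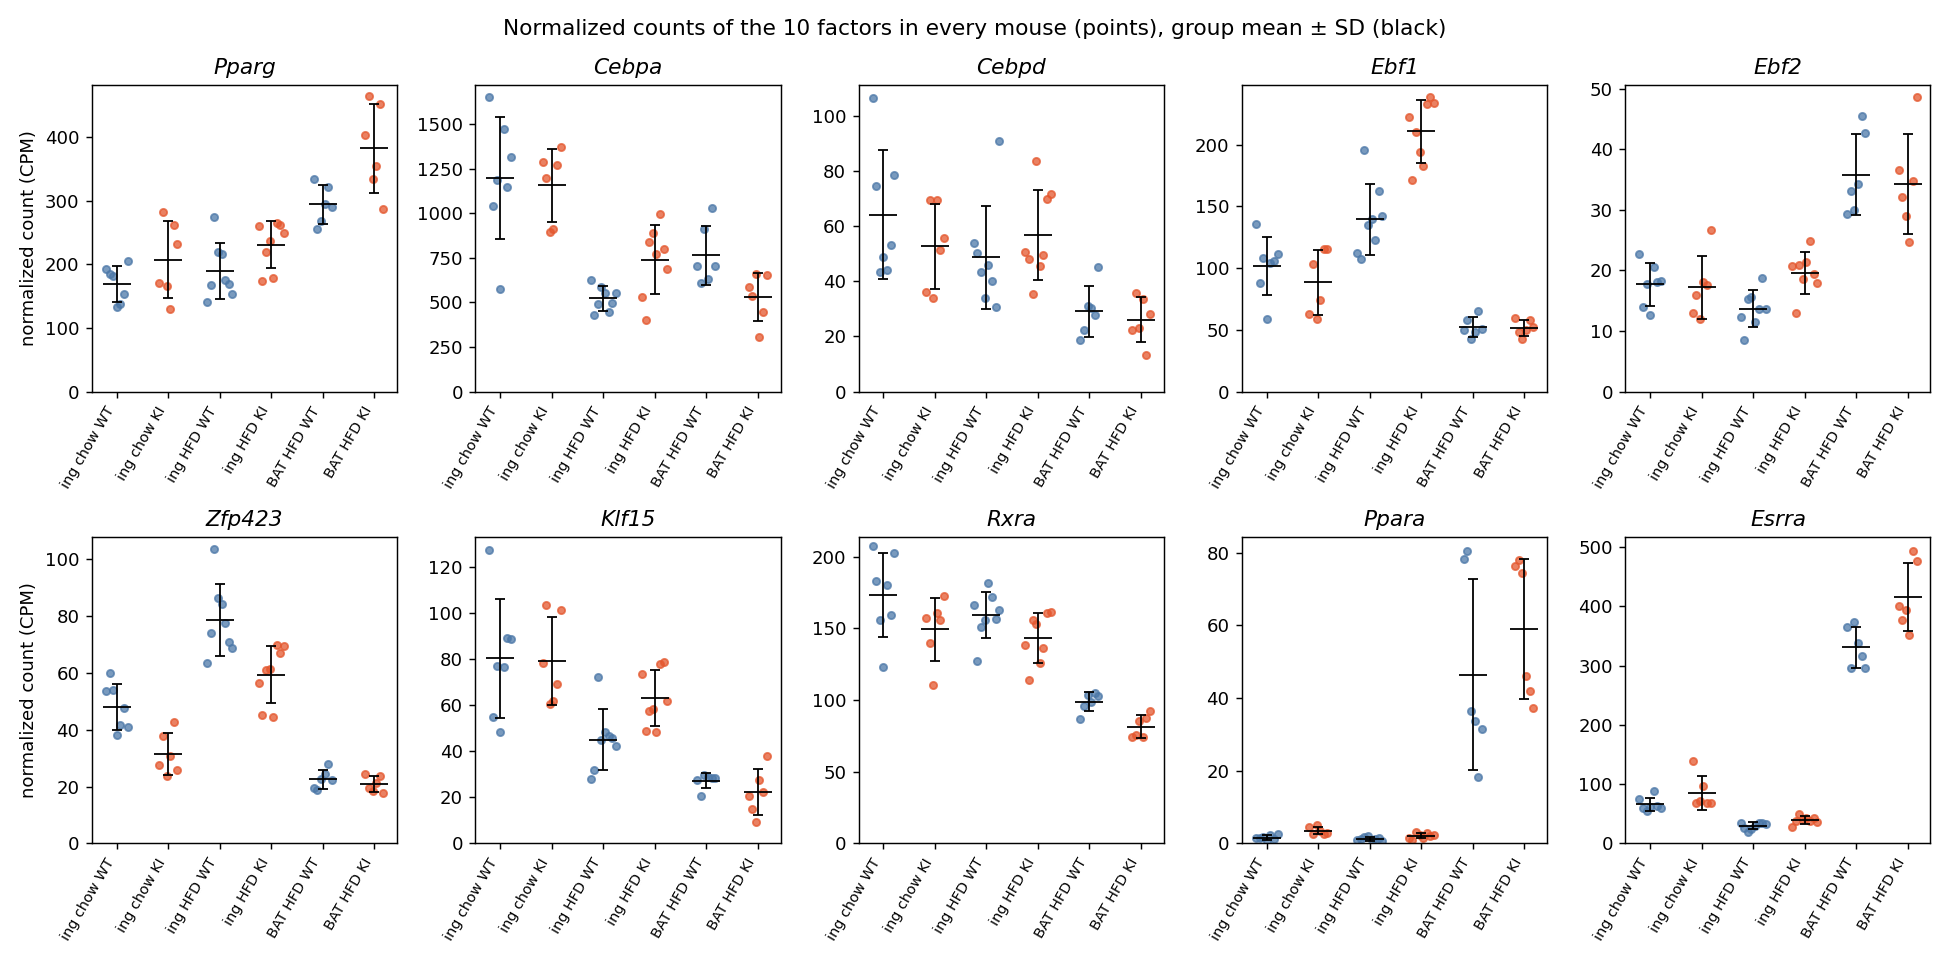
Level of each of the 10 factors (CPM, linear axis) in every mouse of the 6 groups, 1 panel per gene, with points for mice and the group mean ± SD in black. Ppara and Esrra sit far higher in both BAT groups than in the 4 inguinal groups, while most other factors overlap between neighbouring groups.

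The order of the 6 groups by mean level differed among the factors, and most neighbouring groups overlapped. For Cebpa the order ran from chow-fed WT inguinal WAT (1199 CPM) through chow-fed KI (1156), BAT of WT (765), HFD-fed KI inguinal WAT (739) and BAT of KI (532) to HFD-fed WT inguinal WAT (523), with every neighbouring pair overlapping. Pparg ran from BAT of KI mice (383 CPM) to chow-fed WT inguinal WAT (169.6 CPM), again with overlap at each step. These orders depend on the scale. As TPM, Pparg was highest in HFD-fed KI inguinal WAT (258) and lowest in BAT of WT mice (110). Cebpa was then lowest in BAT, at 318 in WT and 243 in KI mice. On the CPM scale, neighbours without overlap occurred at 4 steps. For Rxra (chr2:27676440-27762957, plus strand), HFD-fed KI inguinal WAT lay above BAT of WT mice by 1.45-fold. BAT of WT mice lay above chow-fed KI inguinal WAT by 13.3-fold for Ppara and 3.90-fold for Esrra. For Esrra, chow-fed WT inguinal WAT also lay above HFD-fed KI inguinal WAT, by 1.67-fold. The ranges of every other neighbouring pair overlapped for these 10 genes. Spread among mice of a group was widest for Ppara in BAT of WT mice, with a coefficient of variation of 56.5%, and narrowest for Rxra in the same group, at 6.91%.

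In HFD-fed inguinal WAT, Ebf1 rose in KI mice and the other 9 factors did not pass an adjusted p of 0.01 by edgeR's quasi-likelihood test. Ebf1 (chr11:44617317-45008091, plus strand), a helix-loop-helix factor of fat progenitors that is also needed for B cells, had a lowest, median and highest level of 171, 216 and 239 CPM in 8 KI mice and of 107, 137 and 196 CPM in 8 WT mice. WT mouse 3, at 196 CPM, stood above 3 of the KI mice, so the groups overlapped, although the remaining 7 WT mice lay below every KI mouse. The fitted log2 fold change was 0.60 ± 0.11 (SE; 1.52-fold; adjusted p = 7.3e-04, edgeR's quasi-likelihood test with Benjamini-Hochberg adjustment over all genes tested). Ebf1 kept its call in each of 16 fits that left out 1 mouse (0.55 to 0.68 on the log2 scale). In bulk tissue, fewer cells of a type and less RNA per cell cannot be told apart. Lymphocyte markers (8 genes, none at 0 in every mouse) summed to 398 to 1570 CPM with a median of 816 in WT mice, and to 68.4 to 942 CPM with a median of 117 in KI mice, mostly through Ighm (median 748 and 108 CPM). KI mouse 2, with the highest lymphocyte sum of the KI mice, had their lowest levels of Ebf1, Pparg, Cebpa, Ebf2, Rxra and Ppara. Without KI mouse 2 and WT mouse 2, those with the highest lymphocyte sums, the Ebf1 difference was 0.59 (adjusted p = 7.9e-04). The part of lymphocytes in the Ebf1 value was not tested.

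Of all genes tested in this comparison 11.5% were called, 6.21% as higher and 5.24% as lower in KI mice, so 1 called of 10 is close to the background share. None of the 10 factors was without overlap between genotypes, against 4.53% of all genes. The fitted difference was positive for 8 factors and negative for 2, with a median of 0.46 on the log2 scale against 0.0055 over all genes. An unadjusted p below 0.05 was found for 8 factors and for 5426 of 16471 genes. On the TPM scale the median of all genes moves by 0.46 in KI mice and the differences of Zfp423 and Rxra turn positive, and without the mitochondrially encoded genes neither turns.

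The pair that completes differentiation did not pass the threshold in this tissue and diet. Cebpa levels were 403, 786 and 996 CPM (lowest, median and highest) in KI mice and 427, 525 and 629 CPM in WT mice. Of the KI mice, 6 stood above every WT mouse. KI mouse 1 lay within the WT range, and KI mouse 2, with the highest lymphocyte sum of the KI mice, lay below it. The fitted difference was 0.50 ± 0.15 on the log2 scale (adjusted p = 0.0196, edgeR's quasi-likelihood test), and it passed the threshold without KI mouse 1 (adjusted p = 0.0098) or KI mouse 2 (adjusted p = 0.0014). Pparg levels were 173, 244 and 265 CPM in KI mice and 141, 172 and 275 CPM in WT mice, with the highest value in WT mouse 3. Its difference was 0.29 ± 0.13 (adjusted p = 0.127). Cebpd (chr16:15887286-15891031, plus strand), the early C/EBP factor, ran from 35.6 to 83.7 CPM in KI mice and from 30.9 to 90.8 CPM in WT mice, with a difference of 0.23 ± 0.21 (adjusted p = 0.496). Rxra, the partner of Pparg, had 114, 146 and 161 CPM in KI mice and 128, 160 and 182 CPM in WT mice, a difference of -0.15 ± 0.08 (adjusted p = 0.220).

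Among the commitment factors, Ebf2 and Zfp423 came close to the threshold on opposite sides of 0. Ebf2 (chr14:67233292-67430918, plus strand) had 12.9, 20.0 and 24.8 CPM in KI mice and 8.47, 13.7 and 18.8 CPM in WT mice, and its difference was 0.52 ± 0.14 (adjusted p = 0.0108). Without WT mouse 7, the WT mouse with the highest level, the adjusted p was 0.0034 by edgeR's quasi-likelihood test. It was 0.0026 without KI mouse 2, the KI mouse with the lowest level and the highest lymphocyte sum. Zfp423 had 44.6, 61.4 and 69.9 CPM in KI mice and 63.6, 75.8 and 104 CPM in WT mice, a difference of -0.40 ± 0.11 (adjusted p = 0.0139). Adipose progenitor markers (10 genes, none at 0) summed to medians of 508 CPM in KI and 564 CPM in WT mice, with overlapping ranges (489 to 593 and 497 to 745 CPM). The part of progenitor number in the Ebf2 and Zfp423 values was not tested.

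Of the metabolic factors, Klf15, Ppara and Esrra had positive differences that missed the threshold of 0.01. Klf15 (chr6:90462576-90475238, plus strand) had 48.5, 60.2 and 78.8 CPM in KI mice and 28.0, 45.3 and 72.3 CPM in WT mice. All WT mice but mouse 3 were at or below the lowest KI mouse, to 3 digits. The difference was 0.49 ± 0.16 (adjusted p = 0.0359), and 0.62 without WT mouse 3 (adjusted p = 0.0041). Esrra had 27.9, 39.5 and 48.8 CPM in KI mice and 18.8, 31.3 and 35.1 CPM in WT mice, a difference of 0.43 ± 0.13 (adjusted p = 0.0199). Ppara had 0.963, 2.17 and 3.10 CPM in KI mice and 0.651, 1.17 and 2.13 CPM in WT mice, from 28 to 80 and from 17 to 45 counts, and a difference of 0.76 ± 0.26 (adjusted p = 0.0470). Brown adipocyte markers summed to 25.1 to 56.7 CPM in these KI mice and 12.4 to 31.1 CPM in the WT mice, and their part in the Ppara and Esrra values was not tested.

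**Figure D2:**
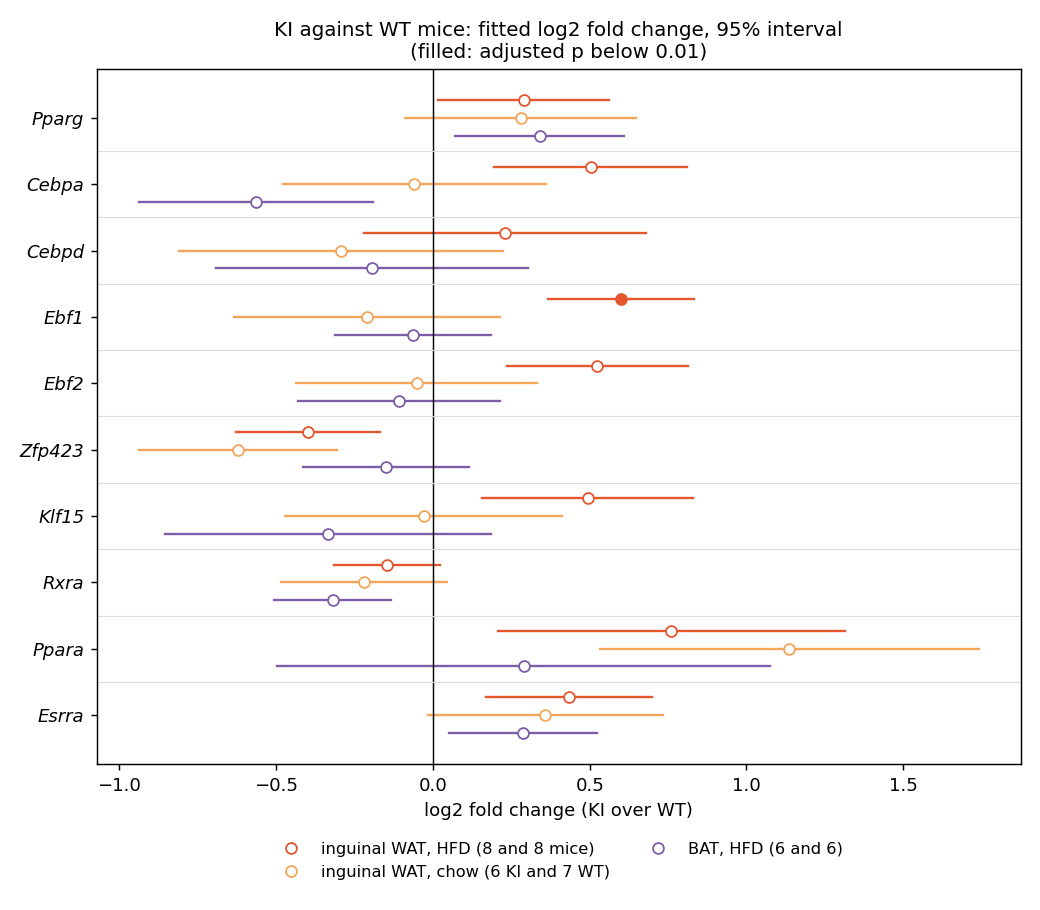
Fitted log2 fold change of KI over WT mice with its 95% interval for the 10 factors in HFD-fed inguinal WAT, chow-fed inguinal WAT and BAT (filled point: adjusted p below 0.01). Ebf1 in HFD-fed inguinal WAT, at 0.60, is the single filled point of 30, and on the TPM scale the signs of Zfp423 and Rxra (HFD), Cebpa and Klf15 (chow) and Ebf1, Ebf2 and Zfp423 (BAT) turn.

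In chow-fed inguinal WAT none of the 10 factors was called, against 3.23% of all genes (1.96% higher, 1.27% lower), by edgeR's quasi-likelihood test. An unadjusted p below 0.05 was found for 2 factors, Zfp423 and Ppara, and for 3560 of 14629 genes. DESeq2 called both factors, and 1121 genes in all against 472 by edgeR. The median difference was -0.06 on the log2 scale over the factors and -0.0085 over all genes. Zfp423 had 23.7, 29.0 and 42.7 CPM in 6 KI mice and 38.1, 47.7 and 60.1 CPM in 7 WT mice. KI mouse 5 was the highest of its group and overlapped with 3 WT mice, and the other 5 KI mice were below all WT mice. The difference was -0.62 ± 0.15 (adjusted p = 0.0173), and -0.73 without KI mouse 5 (adjusted p = 0.0055).

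Ppara was the 1 factor of the 10 whose genotypes did not overlap on chow, against 4.22% of all genes. It had 2.65, 3.11 and 4.90 CPM in KI mice and 0.679, 1.46 and 2.49 CPM in WT mice. These levels rest on 27 to 56 counts per KI mouse and 9 to 25 counts per WT mouse. The difference was 1.14 ± 0.28 (2.20-fold; adjusted p = 0.0224). Brown adipocyte markers summed to 148 to 856 CPM in KI mice and 37.9 to 116 CPM in WT mice without overlap, and their part in the Ppara value was not tested. Esrra had 67.3, 69.2 and 139 CPM in KI mice and 54.5, 60.7 and 87.7 CPM in WT mice, a difference of 0.36 ± 0.17 (adjusted p = 0.226). Its highest value was that of KI mouse 1, which also had the highest brown marker sum.

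The remaining factors on chow had intervals that included 0. The Ebf1 levels were 58.8, 88.8 and 116 CPM in KI mice and 58.7, 106 and 136 CPM in WT mice, a difference of -0.21 with a 95% interval from -0.63 to 0.21. WT mouse 4 had the lowest level of its group for every factor but Cebpd and Esrra. It also had the highest lymphocyte sum, at 3395 CPM against a group median of 503, and the part of lymphocytes in these levels was not tested. Pparg had 130, 201 and 282 CPM in KI mice and 132, 182 and 205 CPM in WT mice, a difference of 0.28 (interval -0.09 to 0.65). Cebpa (-0.06), Ebf2 (-0.05), Klf15 (-0.03), Rxra (-0.22) and Cebpd (-0.29) had adjusted p of 0.295 to 0.950. On the TPM scale the Cebpa and Klf15 differences turn positive. Without KI mouse 4 and WT mouse 4, those with the highest muscle and lymphocyte sums, no factor was called, and the differences of Zfp423 and Ppara were -0.66 and 1.02.

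In BAT none of the 10 factors was called either, against 1.83% of all genes (1.36% higher, 0.475% lower), by edgeR's quasi-likelihood test. An unadjusted p below 0.05 was found for 4 factors, Rxra, Cebpa, Pparg and Esrra, and for 3242 of 13267 genes. No factor was without overlap between genotypes, against 3.69% of all genes. Rxra had 74.2, 80.4 and 92.5 CPM in KI mice and 86.9, 101 and 105 CPM in WT mice, with an overlap through WT mouse 1 and KI mice 5 and 6. The difference was -0.32 ± 0.09 (adjusted p = 0.0381). Cebpa had 306, 560 and 661 CPM in KI mice and 610, 704 and 1027 CPM in WT mice, a difference of -0.56 ± 0.18 (adjusted p = 0.0628). Of the KI mice, 4 were below every WT mouse.

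Pparg in BAT had 287, 380 and 466 CPM in KI mice and 255, 293 and 335 CPM in WT mice, a difference of 0.34 ± 0.13 (adjusted p = 0.114). Esrra had 351, 397 and 494 CPM in KI mice and 295, 327 and 373 CPM in WT mice, a difference of 0.29 ± 0.11 (adjusted p = 0.125). For both genes the KI median lay above the highest WT mouse. Ppara varied widely in both genotypes, from 37.3 to 78 CPM in KI mice and from 18.3 to 80.4 CPM in WT mice. Klf15 ran from 9.44 to 37.9 CPM in KI mice and from 20.6 to 29.5 CPM in WT mice, so the KI range enclosed the WT range. Ebf1 (-0.06), Ebf2 (-0.11), Zfp423 (-0.15) and Cebpd (-0.19) had intervals that included 0, and the first 3 of these turn positive on the TPM scale, where the median of all genes moves by 0.17. Skeletal muscle markers were highest in WT mouse 2 (2836 CPM) and KI mouse 6 (777 CPM), against group medians of 20.2 and 6.56 CPM. Without those 2 mice no factor was called, and the Ppara and Klf15 differences moved from 0.29 to 0.64 and from -0.34 to -0.61.

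The difference of the KI effect between diets was tested as an interaction in the 4 inguinal groups. No factor was called, against 0.632% of all genes. Ebf1 had the largest difference of the 10, 0.82 on the log2 scale (95% interval 0.35 to 1.3; adjusted p = 0.0475, edgeR's quasi-likelihood test), with a KI effect of 0.60 on HFD and -0.21 on chow. Ebf2 (0.59, adjusted p = 0.194) and Cebpa (0.58, adjusted p = 0.240) were next, with intervals from 0.10 to 1.08 and from 0.06 to 1.11. The KI effects of Ppara and Zfp423 differed by -0.36 and 0.24 between diets, with intervals that included 0.

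The difference between tissues on HFD was called for 1 factor, Cebpa, against 2.82% of all genes. The Cebpa difference between KI and WT mice was positive in inguinal WAT and negative in BAT, and the 2 effects differed by -1.03 ± 0.24 (95% interval -1.53 to -0.54; adjusted p = 0.0077, edgeR's quasi-likelihood test). Neither single effect passed the threshold on its own. The call held in 12 of 28 fits that left out 1 mouse, in which the difference ran from -1.12 to -0.92 and the adjusted p from 0.0013 to 0.0156. It was lost with mice of the same number as a block (adjusted p = 0.0558) and in 1 fit of all 6 groups. Ebf1 (-0.63, adjusted p = 0.0183), Klf15 (-0.80, adjusted p = 0.105) and Ebf2 (-0.60, adjusted p = 0.0913) had differences of the same sign with intervals below 0.

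BAT and inguinal WAT differed for nearly every factor on HFD and for most genes tested. In WT mice all 10 factors were called, 5 higher and 5 lower in BAT, against 55.9% of all genes (26.9% higher, 29% lower). In KI mice 9 were called, 4 higher and 5 lower, against 59.1% (28.4% higher, 30.6% lower). Groups did not overlap for 6 factors in WT mice, against 39.3% of all genes, and for 7 in KI mice, against 40.6%. Both comparisons come from 1 fit that also gave the tissue difference of the KI effect, and tissue cannot be told apart from any batch of the separate tables.

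Ppara and Esrra, the factors of oxidative metabolism, were far higher in BAT. Ppara had 18.3, 35.1 and 80.4 CPM in BAT of WT mice, against 0.651 to 2.13 CPM in inguinal WAT. The fitted difference was 5.24 ± 0.34 (37.7-fold; adjusted p = 1.9e-13, edgeR's quasi-likelihood test) in WT and 4.80 ± 0.32 (27.9-fold) in KI mice. Esrra had 295, 327 and 373 CPM in BAT of WT mice, against 18.8 to 35.1 CPM in inguinal WAT, a difference of 3.49 ± 0.13 (11.2-fold) in WT and 3.39 ± 0.13 (10.5-fold) in KI mice. No inguinal mouse reached the BAT range of either gene. Ebf2, the brown precursor factor, was 2.62-fold higher in BAT of WT mice (29.4 to 45.5 against 8.47 to 18.8 CPM, without overlap) and 1.73-fold higher in KI mice, where KI mice of both tissues overlapped. Pparg was 1.55-fold and 1.64-fold higher. On the TPM scale, where the median of all genes moves by -1.05 in WT and -1.36 in KI mice, the Pparg difference turns negative in both genotypes, that of Cebpa in WT mice and that of Ebf2 in KI mice.

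The factors that were lower in BAT included the white-identity factor Zfp423 and the progenitor factor Ebf1. Zfp423 had 18.8, 22.4 and 27.9 CPM in BAT of WT mice against 63.6 to 104 CPM in inguinal WAT, and it fell by 1.81 on the log2 scale in WT and by 1.53 in KI mice. Ebf1 had 42.7, 50.2 and 65.7 CPM in BAT against 107 to 196 CPM, and it fell by 1.41 in WT and by 2.04 in KI mice. Neither gene overlapped between tissues in either genotype. Rxra fell by 0.69 and 0.83, Klf15 by 0.73 and 1.53, and Cebpd by 0.74 and 1.14. The Cebpd call in WT mice (adjusted p = 0.0092) held in 14 of 28 fits that left out 1 mouse, and that of Klf15 was lost without mouse 2 of the WT BAT group (adjusted p = 0.0126). Cebpa was 0.55 higher in BAT of WT mice (adjusted p = 0.0059), a call that held in 23 of the 28 fits but in 3 of 7 other settings (adjusted p from 0.0050 to 0.0244). In KI mice its difference was -0.49 (adjusted p = 0.0137), and it passed the threshold in 4 of the 7 (adjusted p from 0.0027 to 0.0497).

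**Figure D3:**
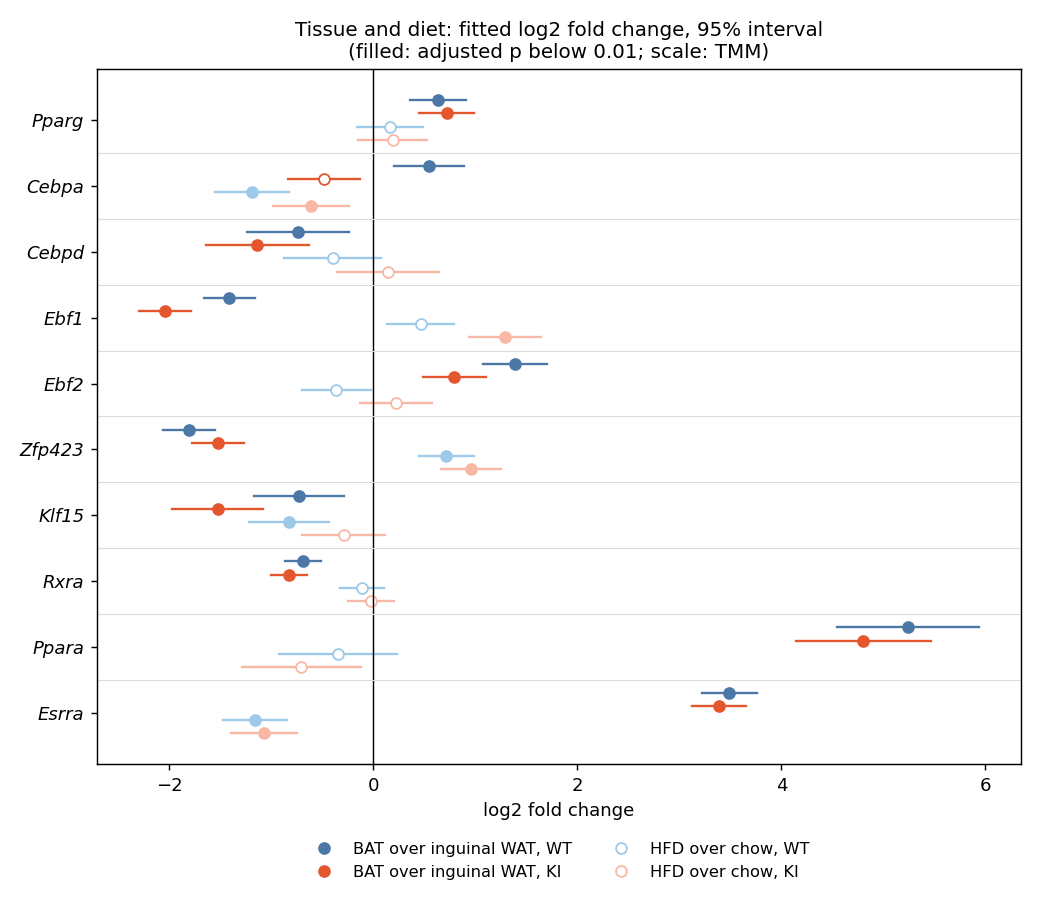
Fitted log2 fold changes with 95% intervals for the 10 factors in WT and KI mice (filled point: adjusted p below 0.01). They are for BAT over inguinal WAT on HFD and for HFD over chow in inguinal WAT. Ppara (5.24 and 4.80) and Esrra (3.49 and 3.39) stand apart between tissues. On the TPM scale the signs of Pparg (both genotypes), Cebpa (WT) and Ebf2 (KI) turn between tissues, and those of Pparg (WT) and Rxra (KI) between diets.

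In inguinal WAT, HFD and chow differed for 4 factors in each genotype. In WT mice Zfp423 rose and Cebpa, Klf15 and Esrra fell, 4 of 10 against 28.2% of all genes (13.1% higher, 15.2% lower). In KI mice Ebf1 and Zfp423 rose and Cebpa and Esrra fell, against 30.6% of all genes (15.2% higher, 15.4% lower). Ranges were without overlap for 2 factors in WT mice, against 12.2% of all genes, and for 3 in KI mice, against 17%. These comparisons use the same mice as the genotype comparisons, and diet cannot be told apart from any batch of the separate tables.

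Cebpa, a driver of terminal differentiation, had 427, 525 and 629 CPM on HFD and 577, 1184 and 1653 CPM on chow in WT mice. It fell by 1.19 on the log2 scale in WT mice (adjusted p = 4.3e-06, edgeR's quasi-likelihood test) and by 0.61 in KI mice (adjusted p = 0.0081), with WT mouse 4 on chow inside the HFD range. In KI mice the call held in 23 of 29 fits that left out 1 mouse. Esrra fell by 1.16 in WT and by 1.07 in KI mice, from 54.5 to 87.7 CPM on chow to 18.8 to 35.1 CPM on HFD in WT mice, without overlap in either genotype. Zfp423 rose by 0.72 in WT and 0.96 in KI mice, without overlap in either. Ebf1 rose by 1.29 in KI mice (2.44-fold; 58.8 to 116 CPM on chow, 171 to 239 CPM on HFD), without overlap, and differed by 0.46 in WT mice (adjusted p = 0.0214). Klf15 fell by 0.83 in WT mice and differed by -0.29 in KI mice (adjusted p = 0.251). Pparg, the central factor of fat cells, differed by 0.17 and 0.19, with intervals from -0.16 to 0.49 and from -0.15 to 0.53, and none of Cebpd, Ebf2, Rxra and Ppara was called in either genotype.

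Genes related to the 10 factors were followed in lists of relatives, partners and targets. The lists were chosen with earlier results of these data known. Their counts beside the share of all genes are therefore a description and no test. Of the 18 family relatives, 16 were tested in HFD-fed inguinal WAT, where 2 rose and 1 fell in KI mice, against 6.21% of all genes called higher and 5.24% called lower, with a median difference of 0.17 against 0.0055 over all genes. Ddit3, a stress-induced C/EBP relative that blocks other C/EBP proteins, rose by 1.37 in HFD-fed inguinal WAT, 1.22 on chow and 2.15 in BAT, from means of 34.3 to 88.1, 45.0 to 105 and 81.0 to 368 CPM. Its genotypes did not overlap in any of the 3 comparisons. Cebpg, its dimer partner in stress responses, rose by 0.45, and Esrrg, an oxidative relative of Esrra, fell by 1.06 on HFD. On chow 1 of 15 relatives rose, against 1.96% of all genes, and in BAT 1 of 16, against 1.36%, in both cases Ddit3.

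Of the other adipogenic regulators, 25 were tested on HFD in inguinal WAT, where 1 rose and 2 fell, a share close to the 11.5% of all genes called. The thyroid hormone receptor gene Thra rose by 0.53, whereas Thrb fell by 0.36 (its sign turns on the TPM scale) and Prdm16, the organiser of brown identity, fell by 0.59. On chow 1 of 24 fell, Mecom (-0.68), against 1.27% of all genes called lower, and in BAT, against 0.475%, 1 of 22 fell, Tle3 (-0.88), a corepressor of brown genes and partner of Pparg. Among the 14 coregulators tested, 1 fell on HFD (Prdm16) and 1 on chow, against 5.24% and 1.27% of all genes called lower. The latter was Nrip1, a corepressor of oxidative genes, which fell by 0.81. None was called in BAT, against 1.83% of all genes. Ppargc1a differed by 0.56 (adjusted p = 0.0372), -0.70 (adjusted p = 0.238) and 1.23 (adjusted p = 0.0352) in the 3 comparisons in turn, and Ppargc1b by 0.07, 0.16 and 0.33, by edgeR's quasi-likelihood test.

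Target genes of Pparg and Cebpa were called in both directions. Of 22 tested in HFD-fed inguinal WAT, 4 rose and 6 fell, against 6.21% and 5.24% of all genes, with a median of -0.13. Pck1, which makes glycerol for triglyceride, rose by 1.40, and Lipe, the hormone-sensitive lipase, rose by 0.54. Acsl1, which activates fatty acids, fell by 1.13, and the secreted products Retn, Adipoq and Lep fell by 1.05, 0.85 and 0.62. On chow and in BAT 1 of 22 fell, against 1.27% and 0.475% of all genes, and none rose. That gene was Retn in both, and it fell by 1.23 on chow and fell by 1.84 in BAT. Adipoq differed by -0.63 on chow (adjusted p = 0.0164) and -0.67 in BAT (adjusted p = 0.0133), by edgeR's quasi-likelihood test. By the same test Lep differed by -1.50 on chow (adjusted p = 0.0231) and -1.72 in BAT (adjusted p = 0.101).

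Esrra targets, most of them nuclear genes of mitochondrial respiration, had mostly positive differences. On HFD in inguinal WAT 5 of 12 rose and none fell, on chow 2 of 12 rose and in BAT none was called, against 6.21%, 1.96% and 1.36% of all genes called higher. Vegfa, a growth factor of blood vessels and no respiratory gene, rose by 0.89 on HFD. Sdhb, a subunit of respiratory complex II, rose by 0.70 and 0.67 on HFD and chow, and Cycs, cytochrome c, by 0.66 on chow. The median over the 12 was 0.23, 0.53 and 0.11, against 0.0055, -0.0085 and -0.01 over all genes. Of the Ppara targets, Acot2, a mitochondrial acyl-CoA thioesterase, rose in all 3 comparisons, by 2.16, 1.93 and 2.14, while Cpt1a, the entry enzyme of mitochondrial fatty acid oxidation, fell by 0.33 on HFD (its sign turns on the TPM scale) and Vnn1 by 1.59 in BAT. Hadha, of the mitochondrial fatty acid oxidation complex, rose by 0.79 on chow. Of the Ppara targets as a whole, 1 of 16 rose and 1 fell on HFD, 3 of 16 rose on chow, and 1 rose and 1 fell of 16 in BAT, where the shares of all genes called were 11.5%, 3.23% and 1.83%. Of the 5 Klf15 targets, 3 rose on HFD, against 6.21% of all genes, among them the amino acid enzymes Prodh (0.77) and Bcat2 (0.52), and none was called on chow or in BAT. Of the 9 brown genes used as Ebf2 targets, 6 were tested in inguinal WAT, without Ucp1, Dio2 and Elovl3. On HFD 2 of the 6 rose and 1, Prdm16, fell by 0.59, against 6.21% of all genes called higher and 5.24% called lower. On chow 2 rose and none fell, against 1.96% and 1.27%. Cidea, a lipid droplet protein, and Cox8b, a cytochrome c oxidase subunit, rose in inguinal WAT, by 1.55 and 1.04 on HFD and by 3.02 and 2.41 on chow. None of the 9 was called in BAT, against 1.83% of all genes.

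Several calls of related genes lay close to the threshold and were lost in fits that left out 1 mouse, in which none of the genes named as risen or fallen changed direction. Of the 16 fits of HFD-fed inguinal WAT that left out 1 mouse, the call held in 3 for Thrb and Prodh, 5 for Cox8b and 8 for Lep. Of the 13 such fits on chow, it held in 0 for Mecom, 2 for Sdhb, 3 for Cycs, Hadha and Retn, 4 for Cidea and 5 for Nrip1. Of the 12 in BAT, it held in 2 for Ddit3, Acot2 and Vnn1 and in 11 for Retn. The other related genes named as risen or fallen in those comparisons held their calls in every such fit.

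**Figure D4:**
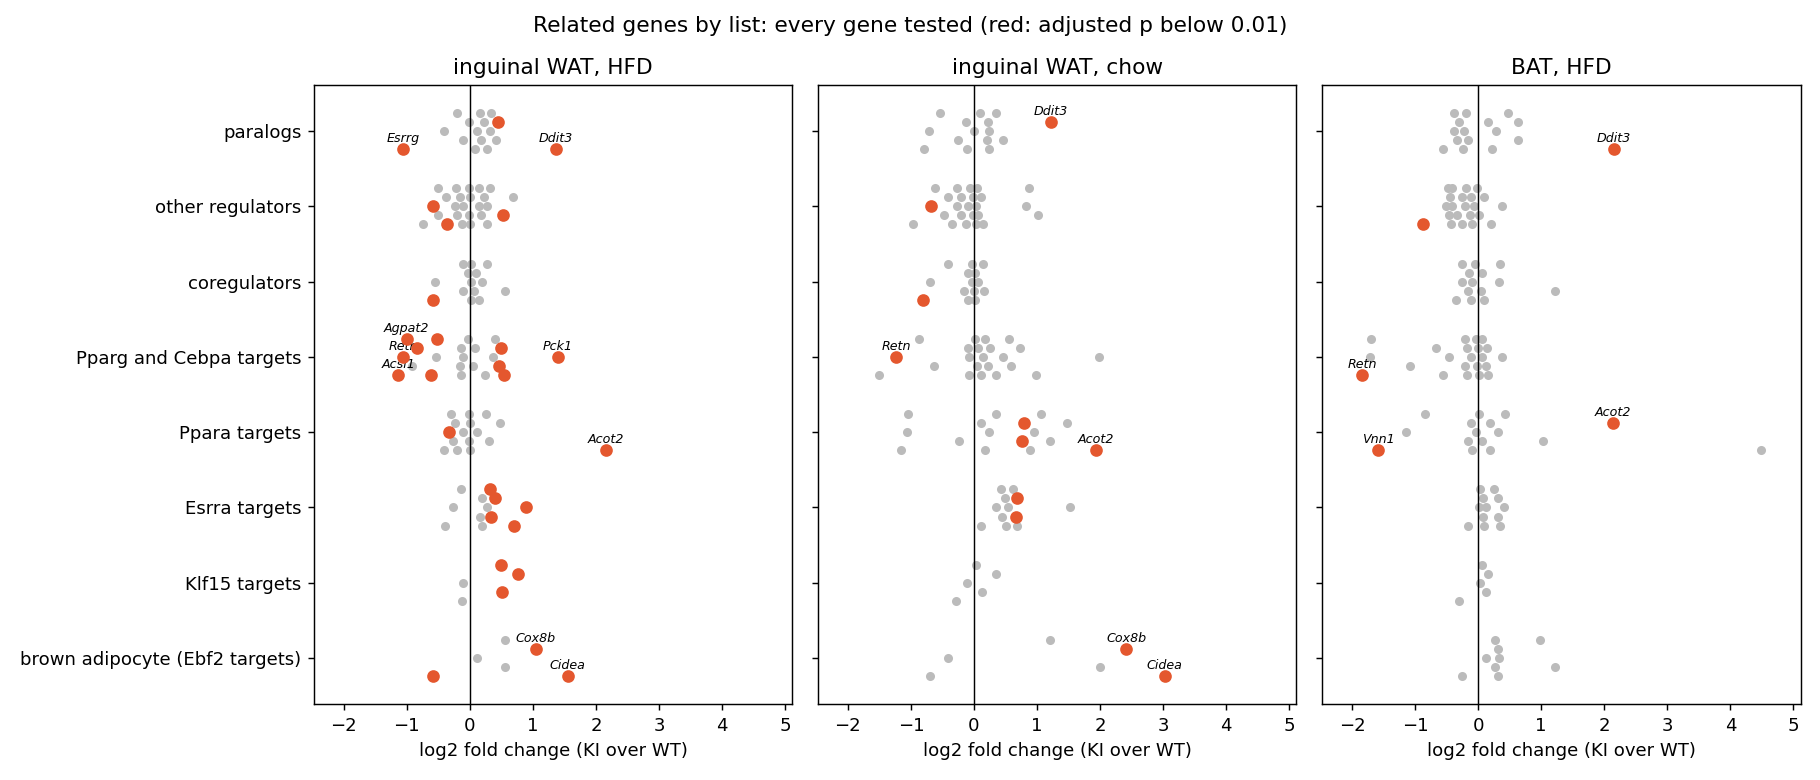
Fitted log2 fold change of KI over WT mice for the related genes, by list, in 3 panels (HFD-fed inguinal WAT, chow-fed inguinal WAT and BAT), with 1 point per gene (red: adjusted p below 0.01). Ddit3 and Acot2 lie far to the right in all 3 panels, at 1.37 and 2.16, 1.22 and 1.93, and 2.15 and 2.14, while targets of Pparg and Cebpa spread to both sides in HFD-fed inguinal WAT.

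The same lists were counted between tissues and diets. All 12 Esrra targets were called higher in BAT than in inguinal WAT of WT mice and 11 of 12 in KI mice, with medians of 3.09 and 3.24 on the log2 scale, against 26.9% and 28.4% of all genes called higher. On the TPM scale 1 of them, Vegfa, turns in WT mice. All 9 brown genes were called higher in both genotypes, and 1 of them, Prdm16, turns on the TPM scale. On HFD against chow, 4 of 12 Esrra targets fell in WT and 9 of 12 in KI mice, and 4 and 3 of the 5 Klf15 targets fell, against 15.2% and 15.4% of all genes. Cebpb, the early partner of Cebpd, was higher in BAT by 2.73 in WT and 2.24 in KI mice, and fell on HFD by 0.60 and 0.71. Rxrb and Rxrg, relatives of Rxra, were higher in BAT by 1.66 and 1.58 in WT mice, where Rxra was lower. These 3 relatives were picked from the called ones after their values were seen.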

How the data were processed

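The authors deposited raw counts per gene for 41 samples in 3 tables, with a gene length beside them. The submitters' processing notes name cutadapt, STAR, SAMtools and featureCounts and the build GRCm38, and versions, annotation release and strand setting are not given in the sources used here. Entries without a length or count were left out, and 1 entry was kept for each of 99 symbols listed more than once with identical counts, which left 52853 of 54838 entries. Each genotype comparison was fitted on its own mice, and the 6 others on the 4 inguinal or the 4 HFD groups, with edgeR 4.0.16 in R 4.3.3 (TMM normalisation, its default expression filter, quasi-likelihood test, Benjamini-Hochberg adjustment over all genes tested, called at adjusted p below 0.01). All 10 factors passed the filter in all 9 comparisons. TPM differences are of log2(TPM + 0.1). Tests were checked on simulated data. Alternatives were DESeq2 1.42.0, other normalisations, filters and thresholds, 1 fit of all 6 groups, a replicate block and leaving out mice. TPM scales, leaving out the mice with the highest marker sums, and leaving mice out of the 4-group fits were chosen after seeing the data. Each sample is 1 replicate, counted as 1 mouse. The members and lists were chosen with earlier results of these data known. Besides the members, the text names, from each list and genotype comparison, up to 2 called genes of largest change in each direction, every called relative there, and Ppargc1a, Ppargc1b, Adipoq, Lep and Mfn2.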

Additional observations from a re-analysis of the deposited data

Results flagged for a closer look

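Of 60 checks of a group's highest or lowest mouse (10 factors in 6 groups), 3 found a mouse far from the others, and chance gives about 1 in 20. Cebpd was 90.8 CPM in mouse 8 of the HFD-fed WT inguinal group, with the next mouse at 53.9 CPM. Klf15 was 72.3 CPM in mouse 3 of that group, with the next at 48.5 CPM, and the same mouse had the highest Ebf1, Pparg and Zfp423 levels of its group. Klf15 was 20.6 CPM in mouse 2 of the WT BAT group, the lowest there, with the next at 27.7 CPM, and that mouse had the highest skeletal muscle marker sum of BAT (2836 CPM). The part of muscle RNA in that Klf15 value was not tested.

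The Cebpa effect of the KI allele differed between BAT and inguinal WAT by -1.03 on the log2 scale on HFD (adjusted p = 0.0077, edgeR's quasi-likelihood test), a call that 16 of 28 single mice could remove when left out.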

How the results depend on the processing

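Ebf1 in HFD-fed inguinal WAT was called under all 8 alternatives other than thresholds (0.59 to 0.62, adjusted p from 5.9e-06 to 0.0024) and in all 16 fits without 1 mouse. In that comparison the count of called factors was 7 at an adjusted p below 0.05, where 3448 of 16471 genes were called. The count was 5 by DESeq2 (Ebf1, Ebf2, Cebpa, Zfp423 and Esrra) and 2 with at least 10 counts in every mouse. It was 3 without the mice of highest lymphocyte sums, and 1 to 3 without 1 mouse. In the other genotype comparisons that changed, the count of all genes called is in brackets. On chow it was 2 at 0.05 (1252 of 14629 genes), 2 by DESeq2 (1121), 1 in a fit of all 6 groups (1088) and 0 to 1 without 1 mouse. At 0.05 it was 1 in BAT (952 of 13267 genes) and 1 for the diet difference (500 of 17400). For the tissue difference it was 2 at 0.05 (1280 of 17214 genes), 0 at 0.001 (163) and 2 by DESeq2 (824). There it was 0 in a fit of all 6 groups and 0 to 1 without 1 mouse. Without 1 mouse, 8 to 10 and 9 to 10 factors were called between tissues in WT and KI mice, and 4 to 5 and 3 to 4 between diets. Under the other settings 7 to 10 of 10 and 9 to 10 factors were called between tissues in WT and KI mice, where Cebpa lost its call in WT mice under 4 of 7 settings, Cebpd under 2, and Cebpa gained one in KI mice under 4. Between diets 3 to 5 factors were called in each genotype, and Cebpa lost its call in KI mice with no low-count filter (adjusted p = 0.0117).

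Over all genes, the count called moved by more than 1.5 times in HFD-fed inguinal WAT (3448 at 0.05, 880 at 0.001, 1242 in a fit of all 6 groups), on chow (1252, 125, 1088 in that fit, 1121 by DESeq2 and down to 288 without 1 mouse), in BAT (952, 59, 834, 715 and 134), for the diet difference (500, 19, 400 by DESeq2 and 168 with at least 10 counts in every mouse), for the tissue difference (1280, 163 and 824 by DESeq2) and between diets at 0.001 (3047 in WT and 3383 in KI mice). The cause was not tested.

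The TPM scale turned called differences between BAT and inguinal WAT, for Pparg (-0.44 in WT, -0.71 in KI), Cebpa (-0.56 in WT) and Ebf2 (-0.64 in KI). Without the mitochondrially encoded genes Cebpa was -0.088 in WT, Pparg -0.080 in KI and Ebf2 -0.010 in KI.

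Replicate numbers are shared between groups, and the deviations of same-numbered mice correlated at -0.30 to 0.73. Differently numbered mice were not set beside them, so this check cannot tell whether the numbers pair the mice. With the replicate block, 2 factors were called in HFD-fed inguinal WAT (Ebf1 and Ebf2), 0 on chow and in BAT, 0 for the tissue difference, and 8 and 9 between tissues, with 127 genes called on chow and 180 for the tissue difference. Ppara in inguinal WAT rests on 9 to 80 counts per mouse, which limits its precision.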
